A study of Homo sapiens with 24 samples.

Results

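The genes described here encode the nuclear subunits of the 5 oxidative phosphorylation complexes, measured in 2 human inflammatory breast cancer cell lines treated with a histone deacetylase inhibitor, with estradiol, or with both. A gene was taken when its annotated symbol began with NDUFA, NDUFB, NDUFC, NDUFS, NDUFV, UQCR, COX4, COX5, COX6, COX7, COX8 or ATP5, or was SDHA, SDHB, SDHC or SDHD. Probe sets naming a single gene were used, and the one with the highest mean stood for its gene. This gave 87 of the 18417 genes tested. Of these, 78 encode subunits: 34 of complex I, 3 of complex II, 7 of complex III, 17 of complex IV and 17 of complex V. A further 8 share a prefix but encode assembly factors or a regulator (NDUFAF1 to NDUFAF7 and ATP5IF1), and 1 (NDUFV1-DT) is a non-coding neighbour of NDUFV1. The last 9 are described apart from the subunits. SDHB, UQCRFS1, NDUFA4 and NDUFA4L2 were not analysed here, and 6 genes of the rule that share their probe sets with another symbol (ATP5F1E, ATP5MF-PTCD1, NDUFC2, NDUFC2-KCTD14, NDUFS5 and UQCRHL) were left out with 2 pseudogenes.

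Oxidative phosphorylation is the last stage of respiration. Complex I oxidises NADH and complex II (succinate dehydrogenase, which is also an enzyme of the citric acid cycle) oxidises succinate. Both pass electrons through ubiquinone to complex III, then through cytochrome c to complex IV, which reduces oxygen. Complexes I, III and IV move protons out of the mitochondrial matrix, and complex V, the ATP synthase, lets them back and makes ATP. Every complex except II also includes subunits encoded in mitochondrial DNA, none of which had a probe set in use here. The nuclear subunits are transcribed under factors that include NRF1, GABP of the ETS family and the estrogen-related receptors with their coactivator PGC-1α, and cancer cells vary widely in how much they rely on this pathway.

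The study treated SUM149PT and SUM190PT, established lines that the labels give as ER(-) with mutant p53 (M237I in SUM149PT, Q317X in SUM190PT). Each line received vehicle (ethanol and DMSO), 10 nM estradiol, the histone deacetylase inhibitor CG-1521, or estradiol with CG-1521, for 48 h. The inhibitor dose was 7.5 µM for SUM149PT and 5 µM for SUM190PT. The medium held serum during treatment for SUM149PT and none for SUM190PT. A comparison between the lines is therefore also one between doses and media, and the 3 cannot be told apart. Each of the 8 groups held 3 arrays from separate experiments, 24 arrays in all. Each line is 1 culture model, and both are tumour cells without stroma. RNA was amplified, biotin-labelled and read on Affymetrix gene arrays, and all levels below are deposited log2 values, on which a difference of 1 is a doubling. Arrays are scaled to one another, so fewer transcripts per cell and a smaller share of the cell's RNA cannot be told apart.

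Arrays of a group correlated at r = 0.9807 to 0.996 over all genes, and the small number of arrays limits the precision. The median epithelial marker level was 10.95 to 12.14 on every array, against 4.85 to 5.33 for fibroblast, 4.29 to 4.75 for leukocyte, 4.13 to 4.54 for endothelial and 4.5 to 5.33 for adipocyte markers. Array 3 of the vehicle group and array 3 of the estradiol group of SUM190PT stood apart in DNA replication genes, with medians of 7.57 and 7.59 where the other arrays of those groups lay between 9.29 and 9.44. The mean over all 78 subunit genes did not set them apart, at 8.51, 8.48 and 8.50 on the vehicle arrays and 8.55, 8.56 and 8.49 on the estradiol arrays, but single genes did, among them COX7A2L, NDUFB6 and COX7B, whose arrays are given below.

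Of the 87 genes, 74 had a RefSeq promoter sequence (250 bases before the annotated start, GRCh38.p14). Stretches that hold the motifs of 2 of the factors named above are shown for some genes described below. Each gene shown was picked with a match. Both strands were searched for 9 letters of the NRF1 motif (GCGCATGCG) and the ETS core CCGGAAG. The NRF1 letters were found in 9 of the 74 (12.2%, against 1.78% of all 27305 promoters): ATP5F1C, ATP5MC2, ATP5ME, ATP5PF, COX6A1, NDUFB4, NDUFS6, NDUFS7 and SDHD. The full palindrome of 10 letters, which was searched first, was found in 3 of them (4.05%, against 1.13%), ATP5F1C, NDUFB4 and SDHD, so the count depends on 1 letter. The ETS core was found in 17 (23.0%, against 8.82%). No NRF1 match overlapped an ETS match. The YY1 letters AAGATGGCG were in 1 of the 74 (1.35%, against 0.641%), and a longer form of 11 letters, also searched first, was in 0 (against 0.256%). The estrogen-related receptor motif TCAAGGTCA was in 0 of the 74 and in 0.319% of all promoters. In the sequences, capitals mark the NRF1 or ETS match on either strand, and each is written 5′ to 3′ on the strand of its gene. COX8A (chr11:63974370-63974619, plus strand) has the ETS core 18 to 12 bases before the start. NDUFAF4 (chr6:96897892-96898141, minus strand) has it 147 to 141 bases before. SDHD (chr11:112086623-112086872, plus strand) holds 2 overlapping NRF1 matches, at 110 to 102 and 109 to 101, and the ETS core at 77 to 71 bases before the start. ATP5F1C (chr10:7787927-7788176, plus strand) holds 2 as well, at 22 to 14 and 21 to 13 bases before the start.
COX8A: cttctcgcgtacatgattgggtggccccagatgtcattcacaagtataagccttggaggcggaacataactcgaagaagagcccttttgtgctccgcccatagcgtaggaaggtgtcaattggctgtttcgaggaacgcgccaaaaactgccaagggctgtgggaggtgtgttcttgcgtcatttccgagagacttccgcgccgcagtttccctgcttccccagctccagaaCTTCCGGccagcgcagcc
NDUFAF4: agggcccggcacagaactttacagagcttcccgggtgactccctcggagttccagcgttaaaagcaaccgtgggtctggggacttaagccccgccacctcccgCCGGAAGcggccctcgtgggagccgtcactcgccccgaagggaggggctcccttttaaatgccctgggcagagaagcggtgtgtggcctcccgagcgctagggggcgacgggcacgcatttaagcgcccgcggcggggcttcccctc
SDHD: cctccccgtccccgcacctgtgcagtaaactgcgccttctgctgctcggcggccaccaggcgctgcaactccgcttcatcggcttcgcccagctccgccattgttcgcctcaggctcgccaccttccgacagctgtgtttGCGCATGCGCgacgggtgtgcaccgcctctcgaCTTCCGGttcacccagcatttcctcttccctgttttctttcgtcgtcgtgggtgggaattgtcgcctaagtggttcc
ATP5F1C: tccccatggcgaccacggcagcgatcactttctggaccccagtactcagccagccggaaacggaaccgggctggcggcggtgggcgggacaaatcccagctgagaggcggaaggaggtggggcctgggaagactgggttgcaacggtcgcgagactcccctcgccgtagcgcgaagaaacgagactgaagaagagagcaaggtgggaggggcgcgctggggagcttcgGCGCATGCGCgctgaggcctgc
A match is a run of letters and not evidence of binding. Of the genes with the 9 NRF1 letters, 7 of 9 were called lower in at least 1 of the 4 CG-1521 comparisons described next, against 43 of the 65 without them. For the ETS core the counts were 14 of 17 and 36 of 57. These counts are given as a description with no test. Of the genes called lower in all 4 comparisons, COX8A and NDUFAF4 hold the ETS core. ATP5F1A, NDUFA2, NDUFA9, SDHA, UQCR10 and UQCRC1, also lower in all 4, hold neither motif.

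More subunit genes were called lower than higher with CG-1521, in both lines and with or without estradiol. In SUM149PT without estradiol, the share called lower was near that of all genes. A gene is called here when limma's adjusted p, corrected over all 18417 genes by Benjamini-Hochberg, was under 0.05. In SUM149PT without estradiol, 17 of the 78 subunits were lower and 4 higher, against 19.9% of all genes lower and 14.4% higher, a share of lower genes close to the background. With estradiol in both arms, 38 of 78 were lower and 1 higher, against 20.4% and 16.5% of all genes. In SUM190PT without estradiol 29 were lower and 0 higher (8.26% and 8.32% of all genes), and with estradiol in both arms 37 were lower and 2 higher (13.2% and 12.5%). The combination against vehicle gave 34 lower and 1 higher in SUM149PT (20.9% and 16.2% of all genes) and 28 lower and 0 higher in SUM190PT (6.77% and 6.62%). In SUM190PT 11 and 15 of its 29 called genes of the rule were called without the first and without the third combination array. The combination shares its arrays with the other contrasts and is not described further. The counts over all 87 genes of the rule, in the same order, were 20 lower and 4 higher, 41 and 1, 30 and 1, and 40 and 2.

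**Figure D1:**
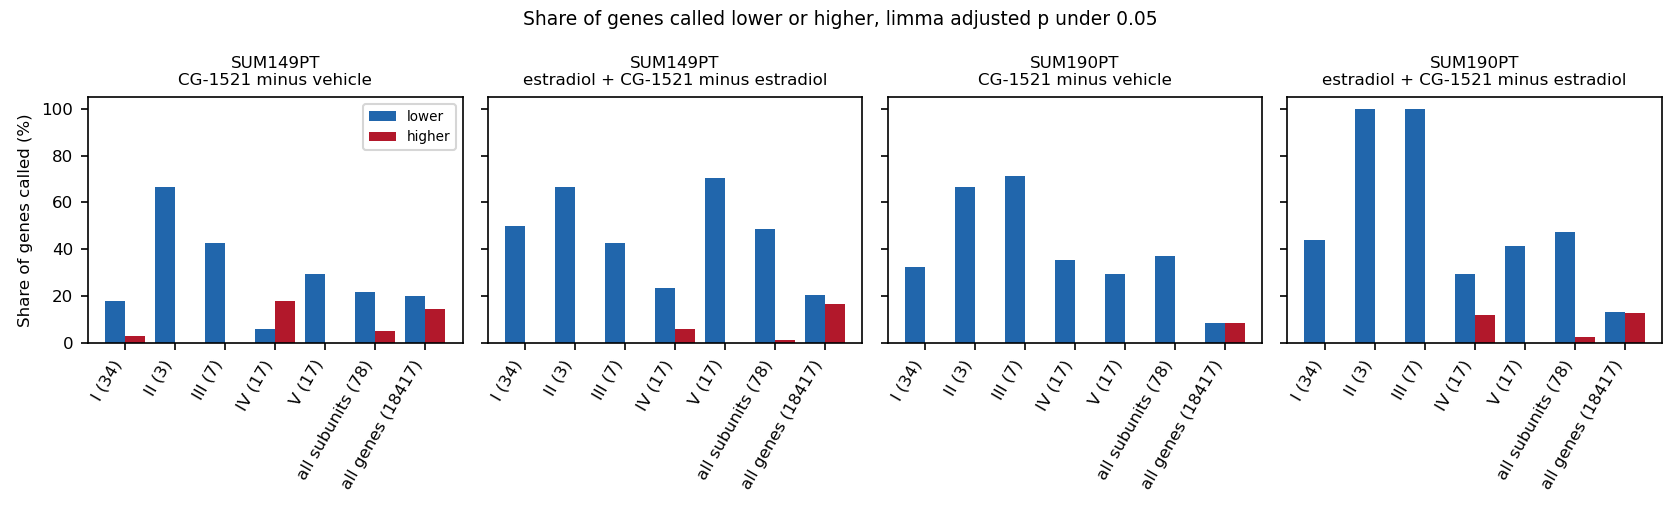
Percent of genes called lower and higher in the 4 comparisons of CG-1521 with its own control, by complex, for the 78 subunit genes together and for all genes tested (the number of genes in brackets). Without estradiol in SUM149PT the subunit share called lower lies near that of all genes, and in the other 3 comparisons it lies above it. The shares are not matched for expression level.

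The changes were small. The median log2 difference over the 78 subunits was -0.13 and -0.23 in SUM149PT, without and with estradiol, and -0.26 and -0.34 in SUM190PT, where the medians over all genes were -0.002, 0.033, -0.048 and 0.071. The median standard error of a single gene was 0.094 in SUM149PT and 0.127 in SUM190PT. Differences below 0 were found for 51, 66, 67 and 65 of the 78. All 3 treated arrays lay below all 3 control arrays for 32, 50, 33 and 53 subunits, against 24.7%, 24.2%, 17.2% and 19.2% of all genes. A single subunit in a single comparison, NDUFB6 in SUM190PT with estradiol, changed by more than 2-fold. The count in SUM190PT without estradiol depended on the arrays used. Of its 31 called genes of the rule, 15 were called without the first CG-1521 array and 19 without the third array. When the other groups of the line were left out of the fit, 18 were called. Without the third vehicle and estradiol arrays, 28 were called, and 40 with estradiol. With estradiol in SUM190PT, 27 were called without the second estradiol array, against 42 with all arrays. After quantile normalization the split in SUM149PT without estradiol was 16 lower and 9 higher over the genes of the rule, against 20 and 4. Over the 78 subunits it was 13 lower and 9 higher, against 17 and 4. For the 78 subunits in SUM190PT with estradiol, quantile normalization gave 23 lower, against 37.

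Other gene groups moved with CG-1521 and are given beside these counts. In SUM190PT the heat-shock list had 10 of 10 measured genes higher without estradiol and 8 of 10 with it, with array medians of 9.80, 9.75 and 9.32 in vehicle, 11.92, 11.02 and 12.16 with CG-1521, and 11.65, 11.24 and 11.88 with the combination. The second array of each CG-1521 group, which had the lowest heat-shock median of its group, also had the highest mean over the 78 subunits: 8.31 against 8.16 and 8.20 with CG-1521, and 8.28 against 8.19 and 8.16 with the combination. From the first to the third array, the heat-shock median and the subunit mean rose together with CG-1521 and went opposite ways with the combination. In SUM149PT the heat-shock list had 1 gene higher and 5 lower, and all 16 DNA replication genes were lower in both comparisons, with medians of -1.37 and -1.47. In SUM190PT 1 and 3 of the 16 were called lower (medians -0.94 and -1.05): the array medians were 9.39, 9.29 and 7.57 in vehicle and 7.58, 8.20 and 7.59 with CG-1521, so the third vehicle array was already as low as the treated ones. Markers of cell type moved in SUM190PT as well. All 5 luminal markers were lower in both comparisons, with array medians of 9.50, 9.43 and 9.69 in vehicle and 8.10, 8.37 and 8.57 with CG-1521. Of the 4 measured basal markers, 2 and 3 were higher, from 5.49, 5.85 and 6.05 to 6.63, 6.85 and 6.99, and of the 5 epithelial markers 2 and 1 were lower (medians -0.32 and -0.18). The part of any of these groups in the subunit results was not tested.

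**Figure D2:**
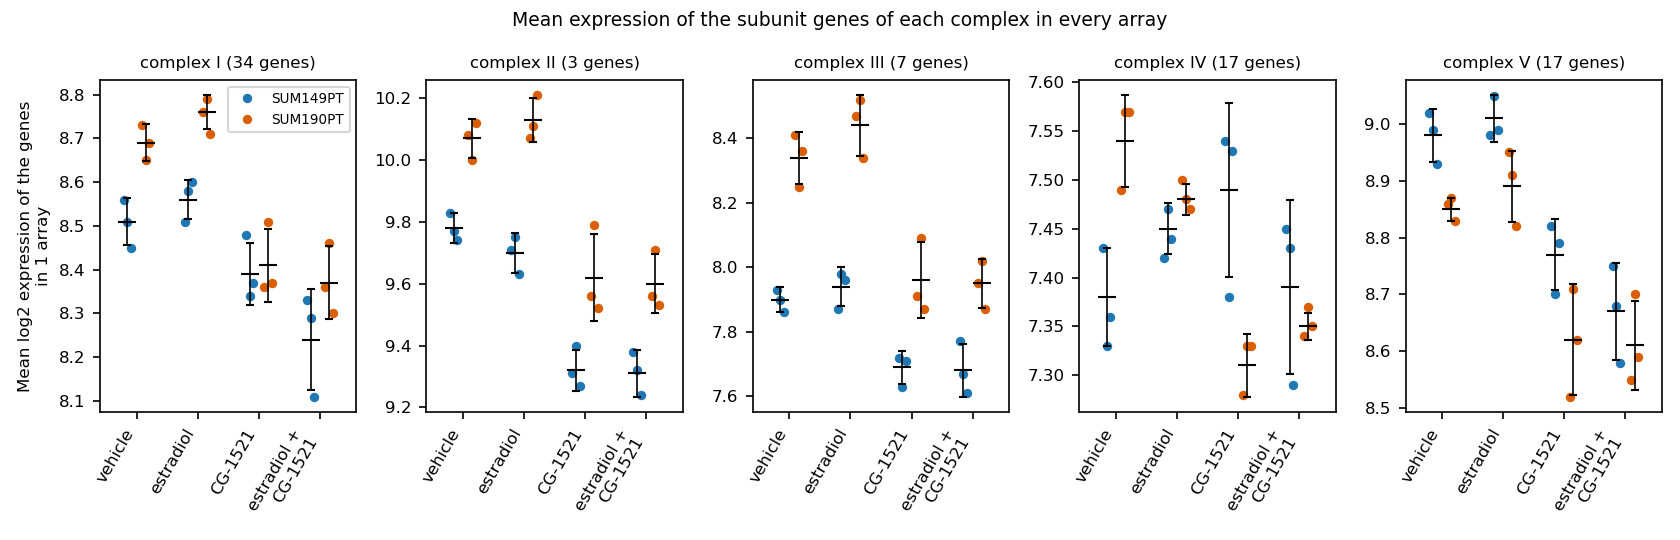
Mean log2 level over the measured subunits of each complex on each of the 24 arrays, by group and line, with a point per array, a horizontal bar for the group mean and error bars of 1 SD (n = 3). Complex II arrays with CG-1521 lie below all arrays without it in both lines, while the complex IV arrays of SUM149PT overlap between groups.

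The complexes differed in how far they moved. Complex II had the lowest median in each comparison, -0.63, -0.61, -0.52 and -0.51 (SUM149PT without and with estradiol, then SUM190PT likewise), over 3 genes. Complex V followed in SUM149PT (-0.22 and -0.36) and complex III in SUM190PT (-0.41 and -0.42). The rank of complex II depends on the probe sets used. In the same order, the other sets gave -0.19, -0.23, -0.39 and -0.31 for SDHD, and -0.06, 0.09, -0.07 and -0.56 for SDHC. Complex I gave -0.15, -0.26, -0.24 and -0.34. Complex IV had medians of 0.10 and 0.06 in SUM149PT and of -0.17 and -0.19 in SUM190PT. These include tissue-restricted forms, and its 10 widely expressed genes alone gave 0.06 and -0.22 in SUM149PT and -0.44 and -0.34 in SUM190PT. These signs were the same after quantile normalization and after centring each array on its median, though quantile normalization brought complex I in SUM149PT without estradiol to -0.04. The differences between complexes are descriptions and were not tested.

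**Figure D3:**
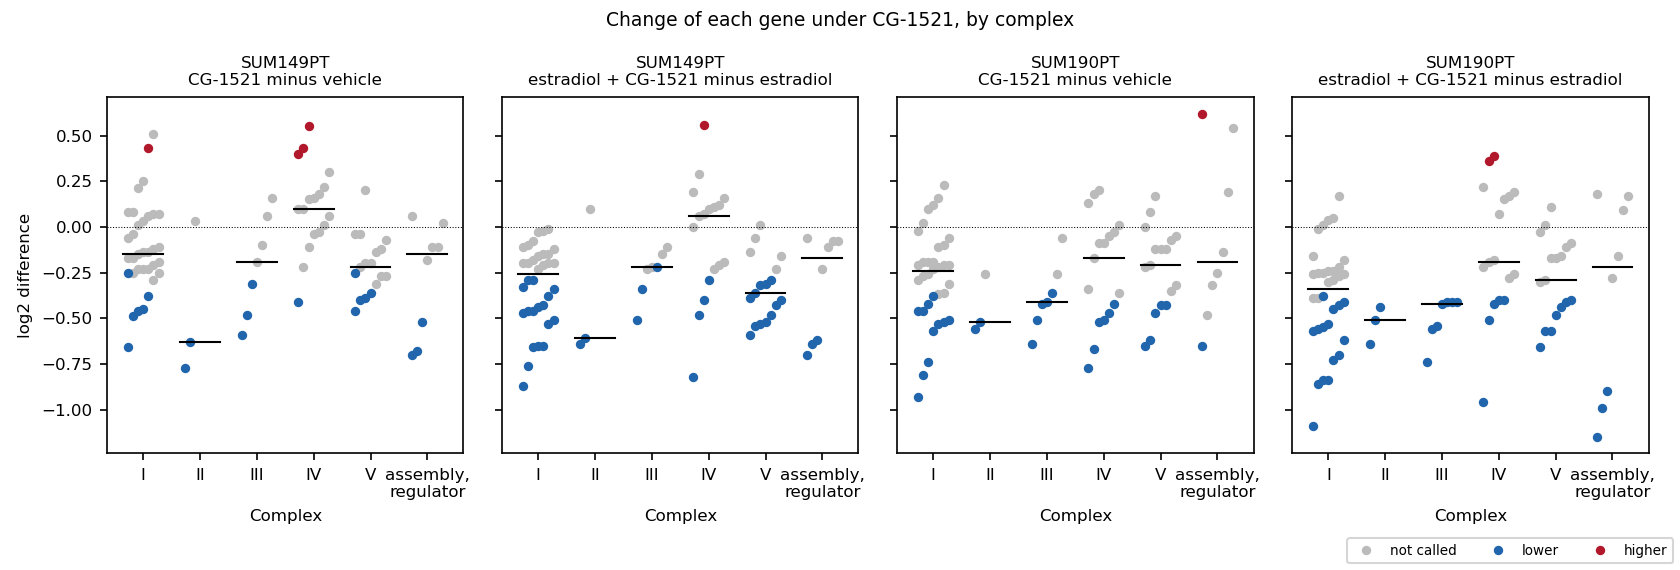
Log2 difference of each gene between CG-1521 and its control (vehicle, or estradiol where both arms had it), by complex and for the assembly factors and regulator, with the median as a bar and called genes in blue (lower) or red (higher). The medians of complex IV in SUM149PT are 0.10 and 0.06, and those of complexes I, II, III and V lie below 0 in all 4 comparisons.

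Complex I has a matrix arm, which holds the NADH site and the chain of iron-sulfur clusters, and a membrane arm, and the difference between them was not tested. Of 15 matrix-arm genes, 5 and 8 were lower in SUM149PT (without and with estradiol) and 7 and 10 in SUM190PT, with medians of -0.17, -0.29, -0.37 and -0.45. Of 18 membrane-arm genes, 1, 9, 4 and 5 were lower and 1 was higher, with medians of -0.10, -0.25, -0.21 and -0.26. In SUM149PT with estradiol, 34 of 34 complex I differences were below 0, and 27 of 34 after quantile normalization.

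NDUFV1, which binds FMN and takes the electrons from NADH, was 1 of the genes that moved in SUM190PT and not in the SUM149PT tests. In SUM190PT it read 9.12, 9.34 and 9.50 in vehicle, 8.24, 8.59 and 8.35 with CG-1521, 9.10, 9.10 and 9.32 with estradiol, and 8.11, 8.59 and 8.32 with both. All treated arrays lay below all controls, with log2 differences of -0.93 ± 0.148 (SE, adjusted p = 0.00131, 1.9-fold lower) and -0.84 (adjusted p = 0.002). In SUM149PT its arrays overlapped, at 9.93, 9.76 and 9.48 in vehicle and 9.83, 9.74 and 9.64 with CG-1521 (0.01, adjusted p = 0.951), and with estradiol the difference was -0.18 (adjusted p = 0.204). NDUFS7, an iron-sulfur subunit near the ubiquinone site, read 8.31, 8.18 and 8.58 in SUM190PT vehicle and 7.46, 7.71 and 7.46 with CG-1521 (-0.81, adjusted p = 0.00158). It fell less in SUM149PT, by 0.17 without estradiol, which was not called, and by 0.33 with it (adjusted p = 0.00921).

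NDUFA9, an accessory subunit beside the ubiquinone pocket, was lower in both lines. In SUM149PT it read 10.24, 10.23 and 10.13 in vehicle, 9.61, 9.56 and 9.45 with CG-1521, 10.25, 10.22 and 10.21 with estradiol, and 9.55, 9.46 and 9.38 with both. The groups did not overlap, and the differences were -0.66 ± 0.077 (adjusted p = 4.73e-06) and -0.76 (adjusted p = 1.03e-06). Its SUM190PT values were 9.67, 9.54 and 9.51 in vehicle, 9.07, 9.38 and 9.14 with CG-1521, 9.72, 9.73 and 9.46 with estradiol, and 9.05, 9.20 and 9.06 with both (-0.38, adjusted p = 0.0448, and -0.53, adjusted p = 0.00653). NDUFA2, an accessory subunit of the NADH module, read 7.41, 7.47 and 7.32 in SUM149PT vehicle against 7.07, 6.99 and 7.0 with CG-1521, and 8.63, 8.18 and 8.65 in SUM190PT vehicle against 7.69, 7.94 and 7.63. Its arrays did not overlap in either line, and the 4 differences were -0.38, -0.65, -0.74 and -0.86 (adjusted p = 0.00292, 2.21e-05, 0.00624 and 0.00216).

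NDUFB6, a membrane-arm accessory subunit, had the lowest value of the complex where estradiol was present. The SUM190PT arrays read 5.82, 5.29 and 5.12 in vehicle, 5.22, 5.37 and 5.07 with CG-1521, 6.47, 6.42 and 5.65 with estradiol, and 5.09, 5.14 and 5.06 with both. The first and second estradiol arrays were the high ones, while the third lay among the vehicle arrays, and CG-1521 changed the gene by -1.09 ± 0.214 with estradiol (adjusted p = 0.0037, 2.12-fold lower) against -0.19 without it (adjusted p = 0.583). In SUM149PT it read 6.44, 6.35 and 6.24 in vehicle, 6.27, 5.99 and 6.01 with CG-1521, 6.25, 6.49 and 6.46 with estradiol, and 5.83, 5.60 and 5.17 with both, with differences of -0.25 (adjusted p = 0.18) and -0.87 (adjusted p = 0.000103). NDUFA5, of the matrix arm, was called in SUM190PT, where it read 8.53, 8.53 and 8.63 in vehicle and 7.97, 8.26 and 8.20 with CG-1521 (-0.42, adjusted p = 0.0198, and -0.84, adjusted p = 0.000288, with estradiol). NDUFA6, of the matrix arm, and NDUFB10, of the membrane arm, fell in SUM149PT by 0.45 and 0.49 (adjusted p = 0.000144 and 0.00317), and NDUFS3, a core subunit, fell there by 0.46 (adjusted p = 0.00067). The single complex I gene called higher was NDUFA13, which is also known as GRIM-19, at 8.30, 8.26 and 8.18 in SUM149PT vehicle and 8.87, 8.42 and 8.73 with CG-1521. The difference of 0.43 had an adjusted p of 0.00981, which became 0.0572 without the first CG-1521 array, and with estradiol it was -0.02.

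Complex II is the smallest of the chain and the 1 with no mitochondrially encoded part. SDHA, its flavoprotein, read 10.55, 10.68 and 10.45 in SUM149PT vehicle and 9.83, 9.78 and 9.74 with CG-1521, a 1.71-fold fall (-0.77 ± 0.082, adjusted p = 1.82e-06). With estradiol it read 10.48, 10.42 and 10.36, and with both 9.85, 9.67 and 9.82 (-0.64, adjusted p = 1.25e-05). The values in SUM190PT were 10.65, 10.69 and 10.77 in vehicle, 10.07, 10.22 and 10.13 with CG-1521, 10.56, 10.60 and 10.71 with estradiol, and 10.06, 10.13 and 10.16 with both. Every array with CG-1521 lay below every array without it in both lines, and the SUM190PT differences were -0.56 ± 0.094 (adjusted p = 0.00179) and -0.51 (adjusted p = 0.00265). The gene has near-identical copies in the genome, so its level may include them.

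SDHD, a membrane anchor whose promoter holds both motifs above, read 10.10, 9.88 and 9.86 in SUM149PT vehicle and 9.25, 9.46 and 9.26 with CG-1521 (-0.63 ± 0.126, adjusted p = 0.000897), and its difference with estradiol was -0.61 (adjusted p = 0.00103). Readings in SUM190PT were 9.54, 9.22 and 9.43 in vehicle and 9.05, 9.31 and 9.05 with CG-1521. These arrays overlapped (-0.26, adjusted p = 0.165), while with estradiol the values were 9.66, 9.67 and 9.83 against 8.97, 9.19 and 9.06 and did not (-0.64, adjusted p = 0.00277). Its other probe set gave -0.19, -0.23, -0.39 and -0.31, against -0.63, -0.61, -0.26 and -0.64, so the sets disagreed in size. The SDHD set used is numbered among those of chromosome 1 genes, while SDHD is on chromosome 11, so it may read another locus. SDHC, the other anchor, moved in SUM190PT, from 10.07, 10.10 and 10.17 in vehicle to 9.57, 9.83 and 9.39 with CG-1521 (-0.52 ± 0.133, adjusted p = 0.0192), and by -0.44 with estradiol (adjusted p = 0.0297). In SUM149PT it read 8.84, 8.76 and 8.90 in vehicle and 8.84, 8.95 and 8.81 with CG-1521, with overlap (0.03, adjusted p = 0.829). The call in SUM190PT depended on the probe set: the other set of SDHC gave -0.07 without estradiol, and the mean of both gave -0.29 (adjusted p = 0.117). The SDHC set used is numbered among those of chromosome 17 genes, while SDHC is on chromosome 1, so the same limit holds for it. It also holds outside complex II, for NDUFV2 (chromosome 18) and ATP5MK (chromosome 10). Their sets are numbered among those of chromosomes 19 and X.

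Complex III genes were lower in both lines, with 3 and 3 of 7 called in SUM149PT and 5 and 7 of 7 in SUM190PT, and none was called higher. The SUM190PT counts depended on the scaling: without estradiol 3 were lower after quantile normalization and 1 after median centring, and with estradiol 4 and 7. UQCRC1 and UQCRC2 are its large core proteins on the matrix side. UQCRC1 read 9.25, 9.37 and 9.17 in SUM149PT vehicle and 8.92, 9.01 and 8.91 with CG-1521 (-0.31, adjusted p = 0.00463). In SUM190PT it read 9.46, 9.24 and 9.27 in vehicle and 8.54, 8.97 and 8.54 with CG-1521 (-0.64, adjusted p = 0.00601), with no overlap in either line. With estradiol its differences were -0.22 (adjusted p = 0.0366) and -0.54 (adjusted p = 0.0121), and the first became -0.06 (adjusted p = 0.6) after quantile normalization. UQCRC2 read 11.31, 11.11 and 11.08 in SUM190PT vehicle and 10.83, 10.84 and 10.77 with CG-1521 (-0.36, adjusted p = 0.0235), and the SUM149PT difference of -0.19 was not called (adjusted p = 0.0957). UQCR10, a small subunit, read 8.50, 8.43 and 8.49 in SUM149PT vehicle and 7.95, 8.0 and 8.02 with CG-1521, and 9.20, 8.95 and 8.96 against 8.54, 8.79 and 8.53 in SUM190PT. Its 4 differences were close to one another, at -0.48, -0.51, -0.42 and -0.41 (adjusted p = 4.71e-05, 2.62e-05, 0.0198 and 0.0169). UQCRB, which lies near the ubiquinone site, was called in 3 of the 4 comparisons (-0.59, -0.51 and -0.74, adjusted p = 3.82e-05, 0.0396 and 0.00506), the exception being SUM149PT with estradiol at -0.22 (adjusted p = 0.0568). UQCR11 was called in SUM190PT without estradiol (-0.41, adjusted p = 0.0458), and UQCRH, the hinge protein, with it (-0.41, adjusted p = 0.0162). UQCRH has near-identical copies in the genome.

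Complex IV has subunits in widely expressed and tissue-restricted forms, and the difference between these was not tested. Of the 10 widely expressed genes, 1 and 4 were lower in SUM149PT and 6 and 5 in SUM190PT, with medians of 0.06, -0.22, -0.44 and -0.34. Of the 6 tissue-restricted genes none was lower, 1 was higher in SUM149PT without estradiol and 2 in SUM190PT with it, with medians of 0.14, 0.12, -0.04 and 0.19. Most of the restricted forms lay low on the scale, where a fall is hard to see. COX8A, the smallest subunit, was the complex IV gene lower in all 4. It read 9.49, 9.58 and 9.44 in SUM149PT vehicle, 9.26, 9.0 and 9.01 with CG-1521, 9.56, 9.68 and 9.77 with estradiol, and 9.03, 8.97 and 8.56 with both (-0.41, adjusted p = 0.0106, and -0.82, adjusted p = 3.5e-05). Its SUM190PT values were 8.86, 8.85 and 8.80 in vehicle, 8.10, 7.97 and 8.15 with CG-1521, 8.61, 8.57 and 8.55 with estradiol, and 8.20, 8.33 and 8.01 with both. No arrays overlapped between treated and control in either line, and the SUM190PT differences were -0.77 ± 0.105 (adjusted p = 0.000467) and -0.40 (adjusted p = 0.0162). COX5B, on the matrix face, read 8.69, 8.48 and 8.38 in SUM190PT vehicle and 8.07, 8.10 and 7.86 with CG-1521 (-0.51, adjusted p = 0.0155), and 7.69, 7.82 and 7.72 against 8.05, 7.75 and 7.88 in SUM149PT (0.15, adjusted p = 0.416). COX6A1, at 11.06, 11.22 and 10.90 in SUM190PT vehicle and 10.49, 10.21 and 10.45 with CG-1521, fell by 0.67 (adjusted p = 0.00191), and COX6C and COX6B1 fell there by 0.47 and 0.52 (adjusted p = 0.0242 and 0.00242). COX7B had the lowest value of the complex, in SUM190PT with estradiol, at 9.65, 9.46 and 8.78 with estradiol and 8.21, 8.52 and 8.29 with both (-0.96, adjusted p = 0.0269), and its vehicle arrays at 9.08, 8.31 and 8.31 overlapped those with CG-1521 (-0.36, adjusted p = 0.42). COX4I1, the largest nuclear subunit, was called in none of the 4 comparisons.

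COX7A2L, which tethers complexes III and IV into supercomplexes and is not a fixed part of complex IV, rose in SUM149PT. It read 9.40, 9.43 and 9.42 in vehicle, 10.00, 9.95 and 9.94 with CG-1521, 9.48, 9.40 and 9.40 with estradiol, and 9.91, 10.01 and 10.03 with both. The arrays lay far apart for their spread, with differences of 0.55 ± 0.071 (adjusted p = 1.47e-05) and 0.56 (adjusted p = 1.09e-05), the highest of any subunit in that line. The SUM190PT arrays read 9.31, 9.56 and 10.08 in vehicle and 9.84, 9.81 and 9.90 with CG-1521. The third vehicle array lay above all treated arrays, and the difference was 0.20 (adjusted p = 0.468). Without the third vehicle and estradiol arrays it was 0.42 (adjusted p = 0.0327). COX7A2, the widely expressed form of the subunit that COX7A2L resembles, rose by 0.40 in SUM149PT without estradiol (9.14, 9.19 and 8.86 against 9.65, 9.17 and 9.58, adjusted p = 0.0245, with overlap) and showed no shift with it (0.00). In SUM190PT it fell by 0.42 with estradiol (adjusted p = 0.0391). Among the tissue-restricted forms, COX6B2, a testis form, rose in SUM149PT (0.43, adjusted p = 0.0336) and in SUM190PT with estradiol (0.39, adjusted p = 0.0244), and COX6A2, the heart and muscle form, rose in the latter by 0.36 (adjusted p = 0.0207). The levels of COX6B2 lay between 3.46 and 4.48, near the low end of the scale, which ran from 1.7 to 14.46. COX4I2, COX7A1, COX7B2 and COX8C were called in none of the 4. Muscle markers had array medians of 5.37 to 7.06.

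In complex V, most genes of the catalytic head were lower in each comparison. Of the 4 genes of the F1 head and central stalk, 4 and 4 were lower in SUM149PT and 3 and 3 in SUM190PT, with medians of -0.38, -0.41, -0.52 and -0.57. The c ring gave -0.27, -0.48, -0.35 and -0.17 over its 3 genes, and the parts were not tested against one another. ATP5F1A and ATP5F1B encode the α and β subunits, which bind the nucleotides. ATP5F1A read 11.34, 11.31 and 11.29 in SUM149PT vehicle, 10.87, 10.97 and 10.91 with CG-1521, 11.31, 11.32 and 11.26 with estradiol, and 10.91, 10.91 and 10.79 with both. In SUM190PT the vehicle arrays had a mean of 10.99 ± 0.01 (SD, n = 3), and the other groups in the same order read 10.14, 10.43 and 10.44, then 11.01, 11.01 and 10.99, then 10.13, 10.45 and 10.43. The control arrays of a line lay close together and above every treated array, and the differences were -0.40, -0.43, -0.65 and -0.66 (adjusted p = 0.000309, 0.00015, 0.00247 and 0.00197). ATP5F1B read 12.22, 12.17 and 12.23 in SUM149PT vehicle and 11.74, 11.77 and 11.74 with CG-1521 (-0.46, adjusted p = 6.54e-05), and 12.46, 12.21 and 12.34 against 11.78, 12.09 and 11.84 in SUM190PT (-0.43, adjusted p = 0.0416). The second CG-1521 array was the highest of the treated arrays in SUM190PT, and no array overlapped. With estradiol its differences were -0.39 and -0.57 (adjusted p = 0.000314 and 0.00862).

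ATP5F1C, the γ subunit that turns within the head, read 11.10, 11.14 and 11.06 in SUM149PT vehicle and 10.76, 10.76 and 10.71 with CG-1521 (-0.36, adjusted p = 0.000809). The values in SUM190PT were 10.09, 9.99 and 9.77 in vehicle, 9.68, 9.93 and 9.89 with CG-1521, 10.44, 10.33 and 10.18 with estradiol, and 9.70, 9.81 and 9.73 with both. The vehicle comparison overlapped (-0.12, adjusted p = 0.537), and the estradiol comparison did not (-0.57, adjusted p = 0.0047). ATP5F1D, the δ subunit, was lower in SUM149PT (-0.25 and -0.52, adjusted p = 0.0365 and 0.000168) and in SUM190PT without estradiol (-0.62, adjusted p = 0.00683). In the peripheral stalk, which holds the head still, ATP5PB fell in SUM149PT by 0.39 and 0.59 (adjusted p = 0.00724 and 0.000298), and ATP5PO, the oligomycin-sensitivity protein, fell in SUM190PT by 0.47 and 0.41 (adjusted p = 0.00766 and 0.0118). The c subunit of the membrane ring is made from 3 genes with the same mature protein. ATP5MC3 was called in 3 comparisons (-0.48, -0.43 and -0.48, adjusted p = 0.00289, 0.0166 and 0.00746) and not in SUM149PT without estradiol (-0.27, adjusted p = 0.0813), ATP5MC1 in SUM149PT with estradiol (-0.54, adjusted p = 0.0022), and ATP5MC2 in none. Of the 5 small membrane subunits, 4 were lower in SUM149PT with estradiol, ATP5MJ among them (-0.53, adjusted p = 0.00117), and none in the other 3 comparisons. ATP5IF1, the inhibitor of the synthase, was called in none (-0.11, -0.23, -0.14 and -0.28).

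The complex I assembly factors that share the gene prefix, which help build the complex and are absent from the finished form, held some of the larger changes. Of these and ATP5IF1, 8 genes together, 3 and 3 were lower in SUM149PT, and 1 and 3 in SUM190PT with 1 higher without estradiol. NDUFAF4 read 8.53, 8.25 and 8.54 in SUM149PT vehicle and 7.76, 7.73 and 7.78 with CG-1521 (-0.68 ± 0.092, adjusted p = 2.16e-05). Readings in SUM190PT were 7.66, 7.58 and 7.24 in vehicle and 6.66, 6.98 and 6.89 with CG-1521 (-0.65 ± 0.178, adjusted p = 0.0253). Its groups did not overlap in either line, and with estradiol the differences were -0.64 and -0.90 (adjusted p = 3.68e-05 and 0.00374). NDUFAF5, which modifies NDUFS7, fell in SUM149PT by 0.70 in both comparisons (adjusted p = 0.000102 without estradiol) and in SUM190PT with estradiol by 0.99 (adjusted p = 0.00397). NDUFAF6 fell by 0.52 (adjusted p = 0.000342) and 0.62 in SUM149PT and by 1.15 in SUM190PT with estradiol (adjusted p = 0.00267). NDUFAF7, a methyltransferase, rose in SUM190PT from 6.78, 6.56 and 6.49 in vehicle to 7.41, 7.26 and 7.04 with CG-1521. The difference of 0.62 (adjusted p = 0.012) became 0.54 (adjusted p = 0.0632) without the first CG-1521 array.

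The 4 comparisons use different arrays, though those of a line share an estimate of the spread. The genes called lower in all 4 were NDUFA2, NDUFA9, SDHA, UQCR10, UQCRC1, COX8A, ATP5F1A, ATP5F1B and NDUFAF4. They are 9 of the 87 genes of the rule (10.3%), where 444 of all 18417 genes (2.41%) were lower in all 4. Each of the 5 complexes had at least 1. At the other end, 21 of the 78 subunits (26.9%) were lower in none of the 4, against 68.5% of all genes. SDHA, NDUFA2 and ATP5F1A were called in all 4 under every alternative processing. ATP5F1B, NDUFA9, UQCR10 and NDUFAF4 lost the call in SUM190PT without estradiol under 8, 7, 5 and 4 of its 16 alternatives. UQCRC1 lost it in SUM149PT with estradiol under 7 of 15, and COX8A in SUM190PT with estradiol under 4 of 16. UQCR10 also lost it in SUM190PT with estradiol under 2 of 16, and COX8A and UQCRC1 in SUM149PT without estradiol under 1 of 15 each. The number of genes lower in all 4 ranged from 5 to 10 over the alternatives.

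**Figure D4:**
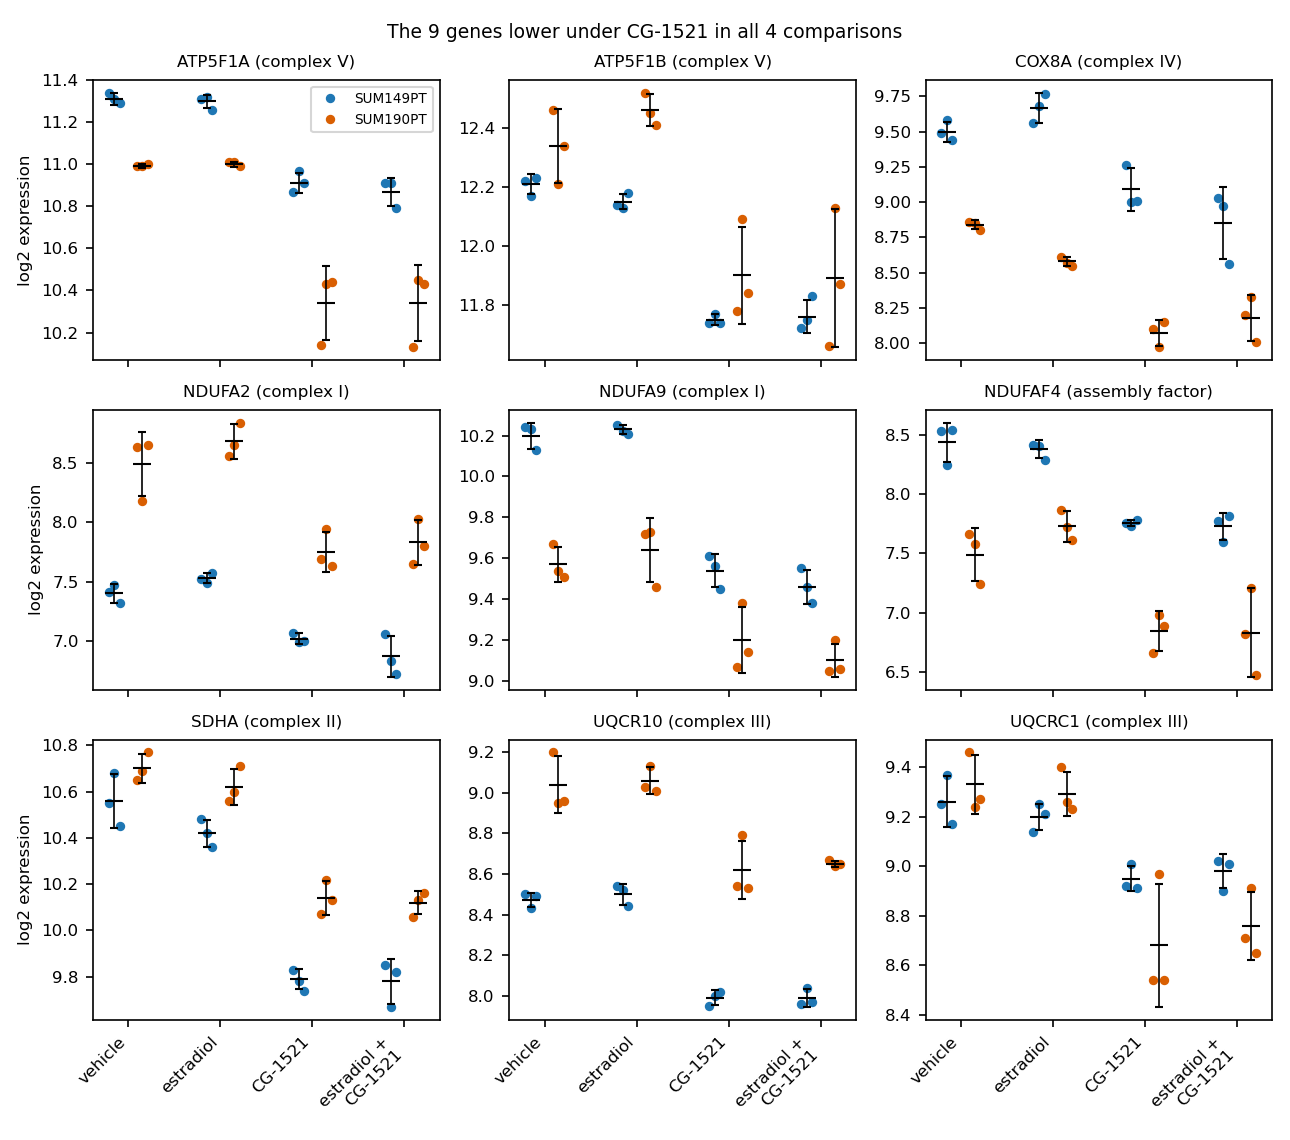
Log2 level of the 9 genes called lower by CG-1521 in all 4 comparisons, by group and line, with a point per array, a horizontal bar for the mean and error bars of 1 SD (n = 3). In SUM149PT and SUM190PT the arrays with CG-1521 lie below their own controls for each of the 9 genes.

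Within SUM149PT, 15 subunits were lower in both comparisons, 88.2% of the 17 lower without estradiol and 39.5% of the 38 lower with it. Within SUM190PT there were 21, 72.4% of 29 and 56.8% of 37. Over all genes these shares were 86.0% and 83.8% in SUM149PT, and 66.1% and 41.4% in SUM190PT. Between the lines, 10 were lower in both without estradiol (58.8% of the SUM149PT list and 34.5% of the SUM190PT list), and 22 with estradiol (57.9% and 59.5%). For all genes the shares between lines were 17.4% and 41.8% without estradiol, and 30.2% and 46.7% with it.

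The change with CG-1521 differed between the lines for 15 of the 78 subunits, all with a more negative change in SUM190PT, against 9.01% of all genes in that direction and 11.6% in the other. Of the 87 genes, 15 were higher and 2 lower in this contrast, and after median centring 12 and 5. Without the third SUM190PT vehicle and estradiol arrays it was 12 and 2. By complex the counts were 8 of 34 for complex I, 1 of 3 for II, 1 of 7 for III, 5 of 17 for IV and 0 of 17 for V. For complex IV all 5 were among the 10 widely expressed genes, whose median difference was 0.52. NDUFV1 had the largest difference (0.94 ± 0.184, adjusted p = 0.00088), followed by COX7A2 (0.74, adjusted p = 0.00981) and COX5B (0.66, adjusted p = 0.0131). NDUFS7 and NDUFB7 differed by 0.64 each (adjusted p = 0.0063 and 0.00274). COX6C, COX6A1 and COX6B1 differed by 0.62, 0.57 and 0.48 (adjusted p = 0.0109, 0.00336 and 0.00475). NDUFA13, called higher in SUM149PT, differed by 0.62 (adjusted p = 0.00668). UQCR11, SDHC and NDUFA3 differed by 0.57, 0.55 and 0.54 (adjusted p = 0.0163, 0.0182 and 0.0134). COX7A2L, called in SUM149PT alone, did not pass this test (0.34, adjusted p = 0.221), nor did any gene of complex V. The 2 genes in the other direction were the assembly factors NDUFAF7 (-0.73, adjusted p = 0.00458) and NDUFAF1 (-0.72 ± 0.221, adjusted p = 0.0233). Dose, medium and line cannot be told apart here.

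In vehicle, the lines differed in many of these genes and in both directions, with a share lower in SUM149PT above that of all genes and a share higher close to it. Of the 78 subunits, 17 were higher and 29 lower in SUM149PT, and of the 87 genes 22 and 32, against 24.5% and 22.1% of all genes, and 22 and 28 without the third SUM190PT arrays. Complex III was lower in SUM149PT (5 of 7 genes, median -0.55), while complex V leaned the other way (7 higher and 4 lower, median 0.26). Complex I had 7 higher and 13 lower (median -0.15) and complex IV had 2 higher and 6 lower (median -0.14). NDUFS6, a zinc-binding accessory subunit, had the lowest value, at 8.15, 8.26 and 8.12 in SUM149PT and 9.35, 9.59 and 9.60 in SUM190PT, with no overlap (-1.34 ± 0.123, adjusted p = 3.87e-09, 2.52-fold lower). SDHC was 2.43-fold lower in SUM149PT (-1.28 ± 0.114, adjusted p = 2.3e-09), and its other probe set gave -0.61. ATP5MJ, a small membrane subunit of the synthase, read 7.40, 7.52 and 7.36 in SUM149PT and 8.74, 8.39 and 8.86 in SUM190PT (-1.24, adjusted p = 4.31e-08). NDUFA10, of the membrane arm, read 8.12, 8.17 and 8.05 against 9.24, 9.27 and 9.42 (-1.19, adjusted p = 9.87e-11). NDUFA2 differed by -1.09 (adjusted p = 1.43e-07). None of these 5 genes overlapped between the lines.

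ATP5F1C had the highest value of any subunit in SUM149PT relative to SUM190PT (1.15 ± 0.092, adjusted p = 4.08e-10), and the arrays listed above lay about 1 unit apart. ATP5ME, of the membrane part, was higher by 0.86 (9.58, 9.56 and 9.52 against 8.74, 8.86 and 8.47, adjusted p = 2.1e-06), NDUFS8, an iron-sulfur subunit, by 0.88 (adjusted p = 4.52e-08), and ATP5MC1 by 0.84 (adjusted p = 0.000221). In complex IV, COX6C, COX5B, COX7C and COX4I1 were lower in SUM149PT (-0.98, -0.78, -0.66 and -0.61), and COX8A was higher (0.67, adjusted p = 2.68e-05). Assembly factors showed 5 higher and 2 lower, NDUFAF7 (1.22, adjusted p = 1.76e-08) and NDUFAF5 (1.21) being the largest. The lines also differed in the markers of their type: all 3 HER2 amplicon genes (ERBB2 -5.41) and all 5 luminal markers were lower in SUM149PT, and all 4 measured basal markers were higher.

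**Figure D5:**
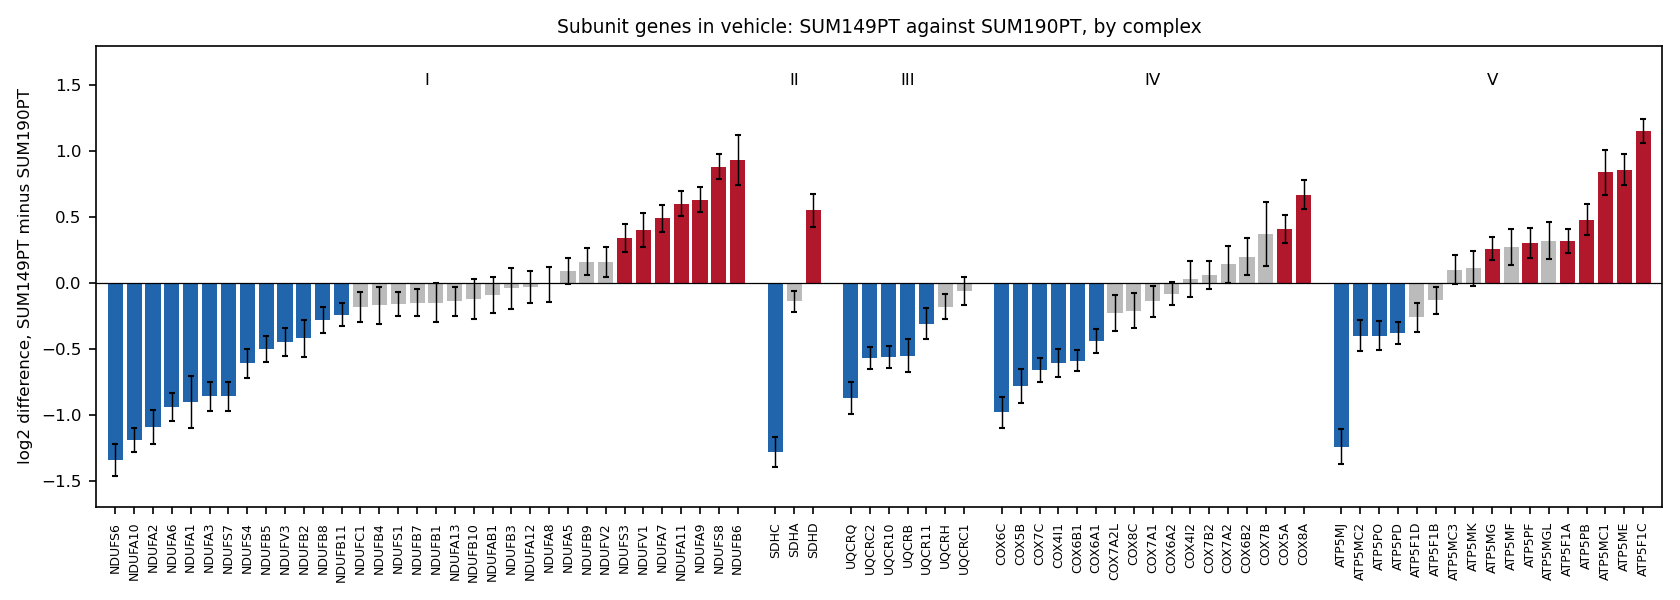
Log2 difference between SUM149PT and SUM190PT in vehicle for each subunit gene as a bar, by complex, with error bars of 1 SE and called genes in blue (lower in SUM149PT) or red (higher). NDUFS6 lies lowest at -1.34 and ATP5F1C highest at 1.15.

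Estradiol alone gave no called gene of the rule in either line, where it called 0% of all genes in SUM149PT and 0.00543% in SUM190PT. At an unadjusted p under 0.05 there were 3 of 78 subunits (845 of all genes) in SUM149PT and 19 (4531 of all genes) in SUM190PT. The medians by complex lay between -0.07 and 0.05 in SUM149PT, and between -0.14 (complex IV) and 0.12 (complex III) in SUM190PT. The largest difference was that of NDUFB6 in SUM190PT (0.77 ± 0.214, adjusted p = 0.0715). Arrays of the same number deviated together between the vehicle and estradiol groups of that line, and with the number as a block NDUFB6 was called (adjusted p = 0.0442), the single gene of the rule to pass. Without the first vehicle array, 7 genes of the rule were called in SUM190PT, 6 of them higher with estradiol. With all 24 arrays in one fit and with array quality weights, 12 and 13 were called. The counts over all genes under these settings are not given here, so these counts do not set the members apart from other genes. Adding estradiol to CG-1521 called 0 genes of the rule and 0% of all genes in either line. Unadjusted, 15 subunits (1156 genes) in SUM149PT and 2 (889 genes) in SUM190PT were under 0.05.

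More subunits were called with estradiol in both arms than without it, but the difference of the changes, a comparison added after the values were seen, called no gene of the rule. In SUM149PT it called 0 of all genes, and 18 subunits were under an unadjusted 0.05, against 5.7% of all genes, with a median of -0.14 and 58 of 78 below 0. In SUM190PT it called 95 of all genes, and 14 subunits were under an unadjusted 0.05, against 22.6% of all genes, with a median of -0.05. NDUFB6 had the lowest value in both lines, -0.61 (adjusted p = 0.762) and -0.90 (adjusted p = 0.115).

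Gene lists of the steps around the chain are given for comparison. Of all genes, 19.9% and 20.4% were lower in SUM149PT (without and with estradiol), and 8.26% and 13.2% in SUM190PT. The shares higher were 14.4%, 16.5%, 8.32% and 12.5% in the same order. These shares also stand beside the regulators described next, and no list was tested against them. The citric acid cycle, which supplies NADH and succinate, had 9 and 7 of 11 genes lower in SUM149PT and 3 and 5 in SUM190PT, with medians of -0.46, -0.40, -0.37 and -0.34. IDH3A, of the NAD-dependent isocitrate dehydrogenase, was lower in all 4 (-0.49, -0.45, -0.56 and -0.79), and OGDH rose in SUM149PT with estradiol (0.33). The pyruvate dehydrogenase complex, its kinases and the pyruvate carrier had 6, 5, 6 and 8 of 11 lower, MPC1 of the carrier being at -1.28 in SUM190PT with estradiol. Of 8 carriers and pores of the inner and outer membrane, 4, 5, 4 and 4 were lower. Among them were SLC25A5, which exchanges ADP for ATP (-0.50, -0.68, -0.77 and -0.65), and SLC25A3, which imports phosphate (-0.38, -0.39, -0.62 and -0.65). UCP2, an uncoupling protein family member, was at -1.20 in SUM190PT, while VDAC2 rose there by 0.55. CYCS, cytochrome c itself, was at -0.53 and -0.77 in SUM190PT, and CYC1, cytochrome c1 of complex III, at -0.47 and -0.73 in SUM149PT. Of 36 measured assembly factors outside the rule, 16, 22, 4 and 15 were lower and 2, 1, 2 and 0 higher.

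The regulators of mitochondrial biogenesis moved in SUM149PT, with 10 and 10 of 17 lower (medians -0.42 and -0.32), and less in SUM190PT, with 3 and 5 lower and 3 and 1 higher (medians 0.09 and -0.12). The difference of the changes between lines called 9 of the 17 with a lower value in SUM149PT and 1 with a higher. TFAM, which packs and transcribes mitochondrial DNA, had differences of -1.14 and -1.28 in SUM149PT, and -0.42 (adjusted p = 0.125) and -0.93 in SUM190PT. TWNK, the mitochondrial helicase, fell in SUM149PT by 0.75 and 0.77 and rose in SUM190PT by 0.76 without estradiol. NRF1 and GABPA, whose motifs were searched above, were at -0.52 and -0.46 in SUM149PT without estradiol and were not called in SUM190PT. PPARGC1A, which encodes PGC-1α, was 3.82 log2 units higher in SUM190PT vehicle than in SUM149PT vehicle (adjusted p = 5.62e-14). CG-1521 lowered it there (-1.92 and -1.81), and in SUM149PT it rose by 0.39 without estradiol.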

How the data were processed

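The deposited table holds log2 expression values of 33297 probe sets on 24 arrays, made by the authors with Affymetrix Expression Console and RMA, per the submitters' processing notes (versions, and whether both lines were normalized together, are not given in the sources used here). RMA corrects background and scales arrays to one another, so a shift shared by most genes would be reduced. Of the probe sets, 19460 carry 1 symbol in the platform annotation, 1754 several, and 12083 had no entry. They gave 18417 genes, of which 74 of the 87 members lay above the median level.

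Differences were fitted with limma 3.58.1 (R 4.3.3, two-sided, Benjamini-Hochberg over all genes, threshold 0.05) on the 12 arrays of a line, and on all 24 between lines, and the scripts were tested on simulated data. The text names up to 3 rises and 3 falls per complex among called genes without array overlap, all SDH, c subunit and isoform genes and the synthase inhibitor. Genes lower in all 4 comparisons, and some further ones, were added after their values were seen. The promoter motifs were shortened to 9 letters after the counts of longer forms were seen, so that they could be printed, and both counts are given. Members and lists were chosen with earlier results of these data known. Nothing says that a replicate number marks a shared day, although the series lists independent experiments. Same-numbered deviations correlated above 0.1 for all pairs between vehicle and estradiol (0.229 to 0.729) and between CG-1521 and the combination (0.434 to 0.518) in SUM190PT, and not for all pairs between other groups. Alternatives covered the replicate block, the samples fitted, scaling, dim genes, probe sets, variance model, array weights and left-out arrays.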

Additional observations from a re-analysis of the deposited data

Results flagged for a closer look

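The change with CG-1521 differed between the lines, by limma's test of the difference itself, for 17 genes of the rule. The values are the log2 change in SUM149PT minus that in SUM190PT, and line, dose and medium cannot be told apart in any of them. In complex I they were NDUFV1 (0.94), NDUFB7 (0.64), NDUFS7 (0.64), NDUFA13 (0.62), NDUFA3 (0.54), NDUFA7 (0.44), NDUFB11 (0.38) and NDUFS8 (0.38). In complex II the gene was SDHC (0.55), whose probe sets disagree, and in complex III it was UQCR11 (0.57). In complex IV they were COX7A2 (0.74), COX5B (0.66), COX6C (0.62), COX6A1 (0.57) and COX6B1 (0.48). The assembly factors NDUFAF7 (-0.73) and NDUFAF1 (-0.72) differed the other way.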

How the results depend on the processing

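The number of called genes of the rule stayed within 1.5 times of its value in 181 of 191 recomputed counts. Quantile normalization and median centring kept each of these total counts within that bound, but not every count of subunits lower (23 against 37 in SUM190PT with estradiol after quantile normalization). In SUM190PT, CG-1521 against vehicle (31 genes) gave 18 when the other groups were left out of the fit, and 15 to 34 when 1 array was left out. Estradiol against vehicle there (0) gave 1 with the replicate block, 12 with all 24 arrays in one fit, 13 with array quality weights and 0 to 7 with 1 array left out. The combination gave 11 to 28 against vehicle (29) and 27 to 38 against estradiol (42) with 1 array left out. Leaving out 1 array elsewhere gave 20 to 26 for CG-1521 in SUM149PT (24), 31 to 39 for the combination against vehicle (39), 31 to 46 against estradiol (42), 48 to 53 for the lines in vehicle (54) and 13 to 23 for the difference of changes (17). The replicate block moved no other count by over 1.5 times. Of 332 results on named genes, 267 kept their call under every alternative and 65 lost or gained one, and none reversed. Of 955 recomputed medians of complexes, 113 moved by more than 1 SD between arrays. The counts over all genes under the alternatives are not given here. With 3 arrays a group, a difference that missed the threshold is not shown to be absent.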
